A study of Mus musculus with 6 samples.

Results

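The mitosis and kinetochore genes are 45 genes of cell division, chosen by name from the 22375 genes of the deposited C2C12 expression table. They comprise CDK1 with its cyclins and phosphatases, the mitotic kinases, the spindle assembly checkpoint, the centromere and outer kinetochore, the chromosomal passenger complex, kinesins and other spindle proteins, cytokinesis genes, the partners of the anaphase-promoting complex, and the transcription factor Foxm1. The rule that defines them uses gene symbols and no expression value. All 45 genes were among the 11593 genes tested, that is, with a mean of at least 0.5 FPKM (fragments per kilobase of transcript, scaled to the mapped fragments of the library, so that levels can be compared between genes).

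Gene expression was measured by RNA-seq in C2C12, an established mouse myoblast line that is widely used as a model of muscle precursor cells. The 3 libraries of the CON group came from cells that were not stretched, and the 3 libraries of the 4H group came from cells stretched cyclically at 15% elongation for 4 h. Both groups were cells of the same purchased line, cultured in serum. Cells to be stretched were seeded near confluence on elastic plates coated with poly-lysine, and whether the CON cells grew on the same plates is not given in the sources used here. Other stretching times were not analysed here. The labels call the libraries replicate biosamples and do not say whether they came from separate cultures, so that p-values measure the spread between these libraries, which may be technical.

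In dividing cells, CDK1 bound to cyclin A or cyclin B starts mitosis, and polo-like and Aurora kinases build the spindle. Kinetochores assemble on centromeric chromatin and bind microtubules through the NDC80 complex, while the spindle assembly checkpoint restrains the anaphase-promoting complex until all chromosomes are attached. The messenger RNAs of these proteins accumulate together in late S, G2 and M phase, because MuvB complexes acting with B-MYB and FOXM1, and the CCAAT-binding factor NF-Y, act on their promoters. Myoblasts pass through this programme as long as they proliferate and leave it as they differentiate towards myotubes.

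The promoters are shown first, because 2 short motifs of cell cycle promoters were found in genes that rose, genes that fell and genes that were not called. RefSeq promoters (assembly GRCm38.p6, 250 bases before to 50 bases after the transcription start) were matched for 37 of the 45 genes, which gave 39 promoters. The remaining genes were Ccna2, Cdc25c, Foxm1, Spc24, Aurkb, Incenp, Tpx2 and Kif20a. Prc1 and Bub3 had 2 overlapping promoters each, so that motifs in their shared bases were counted in both. Each promoter was searched on both strands for the CCAAT box, the letters CCAAT, and for the cell cycle genes homology region (CHR), the letters TTTGAA or TTCGAA, of which the latter reads the same on both strands and was counted once. A stretch of 150 bases before the start is given for 6 genes, with the letters of either motif in capitals. They are 4 genes that were higher in the 4H group (Cdk1, Ube2c, Prc1 from its second start, and Spc25), 1 that was lower (Ccnb2) and 1 that was not called (Cdc20), on the strand of the gene, from chr10:69352913-69353062 (minus strand), chr2:164769779-164769928 (plus), chr7:80294326-80294475 (plus), chr2:69206214-69206363 (minus), chr9:70421555-70421704 (minus) and chr4:118437344-118437493 (minus).
Cdk1: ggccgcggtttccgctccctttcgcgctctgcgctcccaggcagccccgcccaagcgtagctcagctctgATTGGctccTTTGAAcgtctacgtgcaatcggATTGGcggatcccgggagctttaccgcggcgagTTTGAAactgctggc
Ube2c: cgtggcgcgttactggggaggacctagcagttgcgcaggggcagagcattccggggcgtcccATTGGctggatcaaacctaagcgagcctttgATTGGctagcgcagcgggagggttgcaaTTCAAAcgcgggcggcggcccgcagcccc
Prc1: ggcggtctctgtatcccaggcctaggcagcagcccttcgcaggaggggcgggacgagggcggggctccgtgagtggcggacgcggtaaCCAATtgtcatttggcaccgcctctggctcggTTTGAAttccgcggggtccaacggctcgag
Spc25: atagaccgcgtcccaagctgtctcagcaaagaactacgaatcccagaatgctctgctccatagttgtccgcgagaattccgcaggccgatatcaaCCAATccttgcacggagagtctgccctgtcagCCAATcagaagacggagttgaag
Ccnb2: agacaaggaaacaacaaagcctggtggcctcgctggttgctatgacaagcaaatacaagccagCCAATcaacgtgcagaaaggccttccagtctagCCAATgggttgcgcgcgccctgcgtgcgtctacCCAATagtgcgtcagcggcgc
Cdc20: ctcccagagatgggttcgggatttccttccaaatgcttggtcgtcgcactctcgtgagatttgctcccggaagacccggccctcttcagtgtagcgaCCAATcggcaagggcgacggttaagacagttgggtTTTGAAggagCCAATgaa

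In Cdk1, the pair of CCAAT boxes nearest to the start began 80 and 48 bases before it, and a CHR followed at 15 bases before it, with another between the boxes at 71. A CHR downstream of the boxes was also found in Ube2c, with boxes at 88 and 57 bases and a CHR at 29 bases before the start, and in Prc1, with a box at 62 and a CHR at 30. In Ccnb2, 3 boxes lay at 87, 54 and 21 bases before the start, and the CHR nearest to them lay 5 bases after it, outside the stretch shown. Spc25 likewise had boxes at 55 and 23 bases before the start and a CHR at 25 bases after it. The boxes of Cdc20 lay at 53 and 8 bases before the start, on either side of a CHR at 18.

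Over all the matched promoters, 31 of 39 (79.5%) held a CHR, against 19.2% of all 32851 promoters in the table and 14.0% of the promoters of tested genes. A CCAAT box was found in 30 (76.9%), against 37.4% of all promoters, and 2 or more boxes in 20 (51.3%), against 11.7%. Both motifs occurred together in 27 promoters (69.2%), against 7.5% of all promoters. Counted by gene, with Prc1 and Bub3 entered once each, 29 of 37 genes (78.4%) held a CHR. Most CHR letters lay around the start, with 30 of 41 matches (73.2%) within 50 bases of it and a median position of 3 bases after it. CCAAT boxes lay farther upstream, at a median of 66 bases before the start, and neighbouring boxes were a median of 33 bases apart (36 neighbouring pairs), compared with 50 bases in all promoters.

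The motifs were found in genes of each call. A CHR was present in 11 of the 12 promoters of genes higher in the 4H group (91.7%), in 7 of the 9 of genes that were lower (77.8%) and in 13 of the 18 of genes that were not called (72.2%). CCAAT boxes were present in 83.3%, 88.9% and 66.7% of the same promoters. These shares describe letters in a window and were not tested against each other. The share with a CHR depended on the window, since only 33.3% of the promoters held one in the 250 bases before the start (17.1% of all promoters).

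**Figure D1:**
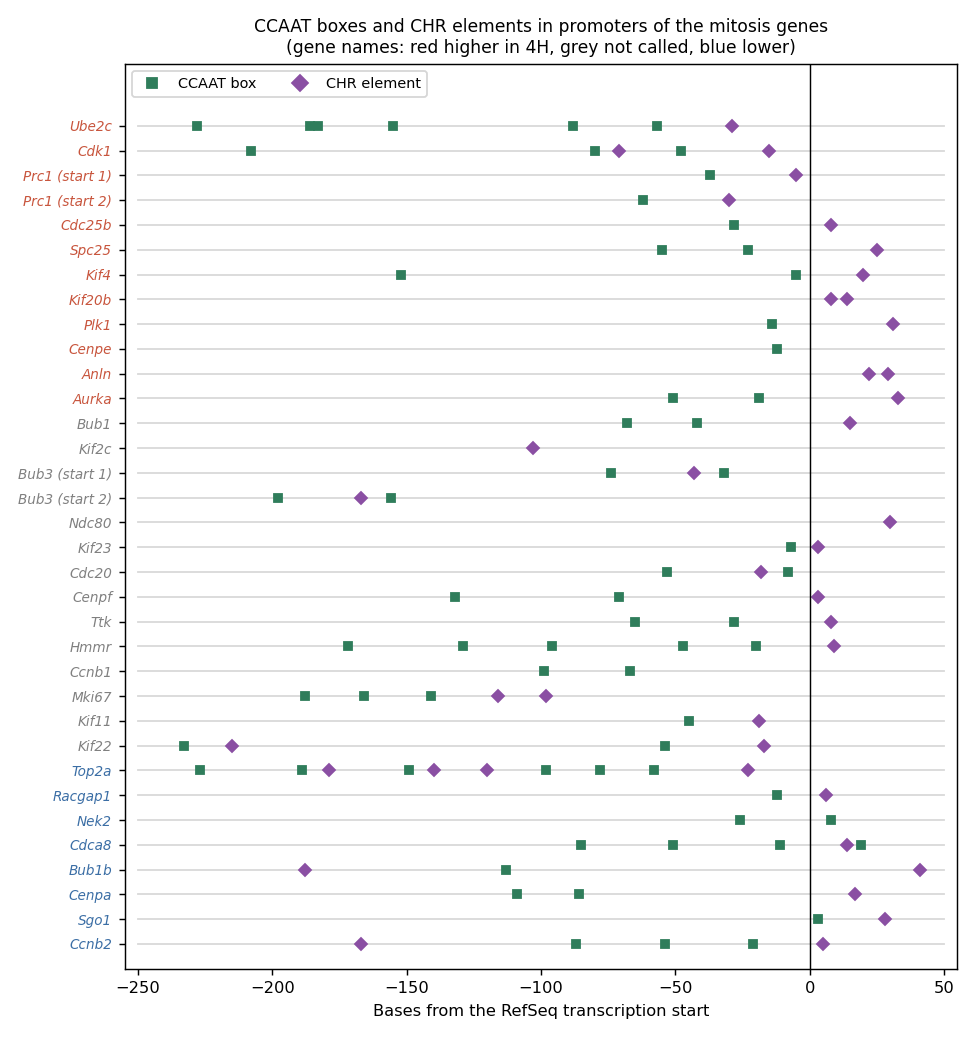
Positions of CCAAT boxes (green squares) and CHR letters (purple diamonds) in bases from the RefSeq transcription start, for the 34 promoters of mitosis and kinetochore genes that held either motif (the other 5 held neither). Genes are ordered from the largest rise to the largest fall, with 30 of 41 CHR matches within 50 bases of the start and 3 of 66 CCAAT boxes after it (in Nek2, Cdca8 and Sgo1, all lower in 4H). Exceptions to the CHR near the start include Mki67 and Kif2c, both not called.

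As a check of the cell type, all 7 myoblast markers were detected, with a summed level of 140.1 to 143.7 FPKM in the CON libraries and 187 to 195 FPKM in the 4H libraries. They did not move together, as Myod1 was at 5.13 ± 0.573 FPKM in CON and 18.2 ± 0.738 FPKM in 4H, and Myf5 at 15.8 ± 0.851 and 9.82 ± 1.13 FPKM (SD, n = 3). Myog, which drives myotube formation, was at most 0.28 FPKM in every library, and Mymx, Myh8 and Actn2 were listed at 0. The 9 myotube markers summed to 0.917 to 1.34 FPKM in the CON group and 1.72 to 2.41 in the 4H group. Of the endothelial markers, the sums were 0.101 to 0.122 and 0.254 to 0.387 FPKM, with Tie1 at 0. Of the leukocyte markers, the sums were 6.73 to 8.51 and 16.5 to 18.5 FPKM, mostly Cd68, with Ptprc and Cd3e at 0, and of the epithelial markers 4.80 to 6.01 and 14.5 to 16.4 FPKM, mostly Krt19, with Epcam at 0. The part of these markers in the results was not tested. Pearson correlations of log2 values across genes were 0.992 to 0.993 between libraries of a group and 0.967 to 0.970 between the groups. FPKM values hold no read numbers, and the depth behind each value was not derived here.

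The mitosis and kinetochore genes were strongly expressed in both groups. Their mean level over the 6 libraries ran from 12.1 FPKM (Kif18a) to 140.1 FPKM (Top2a), with a median of 42.2 FPKM, and every gene lay at or above the 50.1st percentile of the tested genes. Top2a, Anln and Racgap1 were the most abundant, and Kif18a, Cdc25c and Sgo1 the least abundant. Summed over the 45 genes, the level was 2236, 2294 and 2279 FPKM in CON replicates 1 to 3 and 2264, 2325 and 2308 FPKM in 4H replicates 1 to 3. The sums of the groups thus overlapped. As a share of all FPKM in a library, the genes took 0.565%, 0.580% and 0.574% in the CON group and 0.588%, 0.600% and 0.596% in the 4H group, where the groups did not overlap, and the total over all genes was 395790 to 397260 FPKM in CON and 385146 to 387516 FPKM in 4H. In bulk RNA, a change in the number of cells in mitosis and a change in RNA per cell cannot be told apart.

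**Figure D2:**
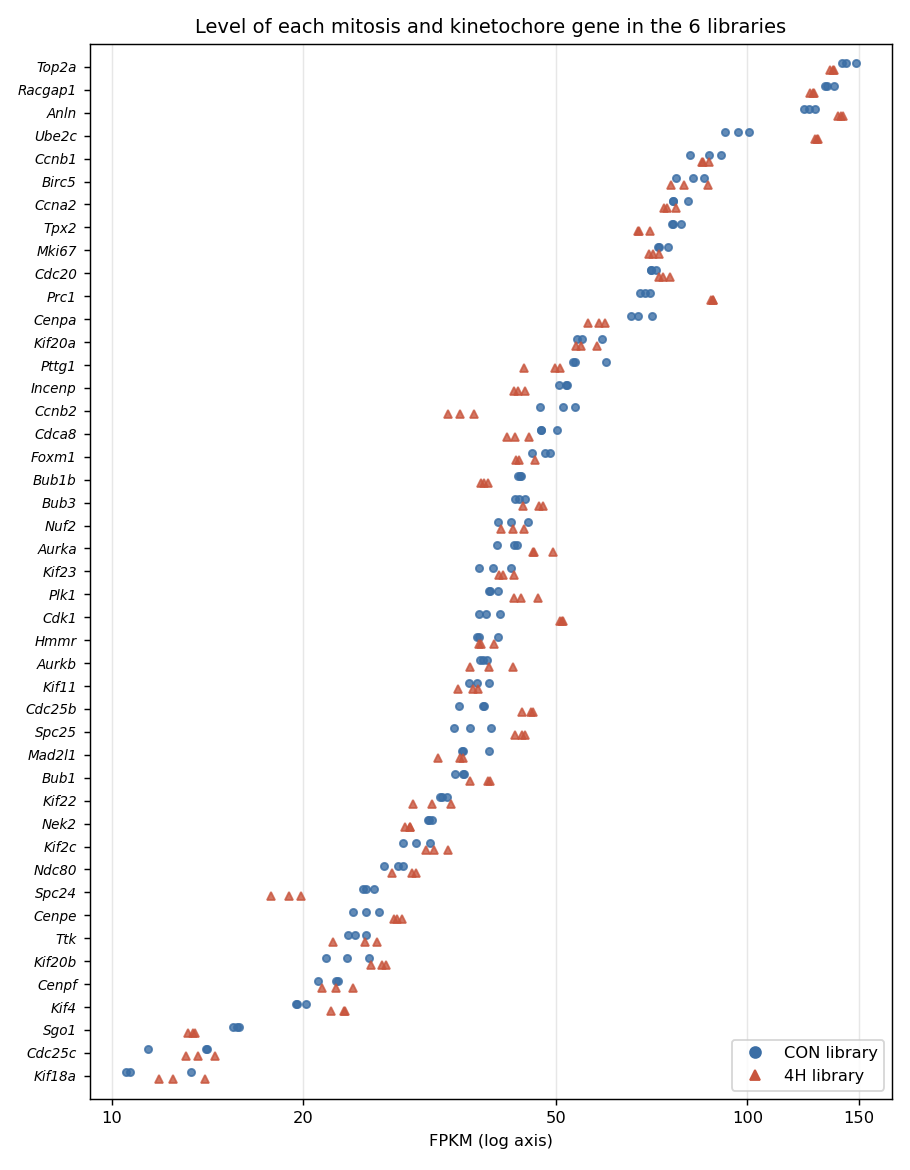
Level of each of the 45 genes in FPKM (log axis), with 3 CON libraries (blue circles) and 3 4H libraries (red triangles) per gene. Genes are ordered by their mean level in CON. Mean levels over the 6 libraries ran from 12.1 to 140.1 FPKM. In the 4H group, Ccnb2 and Spc24 stood to the left of their CON libraries and Cdk1, Prc1 and Ube2c to the right.

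After 4 h of stretching, 11 of the 45 genes were higher and 12 were lower at an adjusted p of at most 0.05, and 22 were not called. The 11 genes that rose were Cdk1, Cdc25b, Plk1, Aurka, Cenpe, Spc25, Kif20b, Kif4, Prc1, Anln and Ube2c. The 12 that fell were Ccnb2, Nek2, Bub1b, Cenpa, Spc24, Sgo1, Incenp, Cdca8, Tpx2, Racgap1, Pttg1 and Top2a. None of the 45 genes reached an absolute log2 fold change of 1, whereas 450 of all tested genes (3.88%) passed both thresholds. Of the 45 genes, 23 (51.1%) were called in either direction, against 46.7% of all tested genes, and against 56.4% of the 5791 tested genes with a mean level at or above that of the lowest of these genes. The share of these genes that rose was 24.4%, against 22.6% of all tested genes, and the share that fell was 26.7%, against 24.1%. The number of calls was therefore near the background in either direction.

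The sizes of the changes were small. The median log2 fold change (4H minus CON, on log2(FPKM + 0.5)) was 0.00 over the 45 genes and -0.01 over all tested genes. The median absolute change was 0.11, against 0.19 over all tested genes. It was 0.17 over the 5791 tested genes at or above the level of the lowest of the 45 genes. The values ran from -0.51 (Ccnb2) to 0.41 (Ube2c), and 14.6% of all tested genes changed by more than Ccnb2. An absolute change above 0.3 was seen in 5 of the 45 genes (Ccnb2, Spc24, Prc1, Cdk1 and Ube2c) and in 31.6% of all tested genes. In 25 genes the values of the groups did not overlap (55.6%, against 56.7% of all tested genes), with all 4H libraries higher in 13 and lower in 12. Of the 5791 genes at comparable levels, all 4H libraries were higher in 1664 and lower in 2095, and the groups overlapped in 2032. The balance of directions depended on the scaling. With the libraries rescaled to TPM (levels that sum to the same total in each library), 14 genes were higher and 7 lower, and with quantile normalization 13 were higher and 8 lower. Over all tested genes, the share of the calls that were higher was 48.4%, 57.4% with TPM and 47.8% with quantile normalization, and the median log2 fold change with TPM was 0.03.

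**Figure D3:**
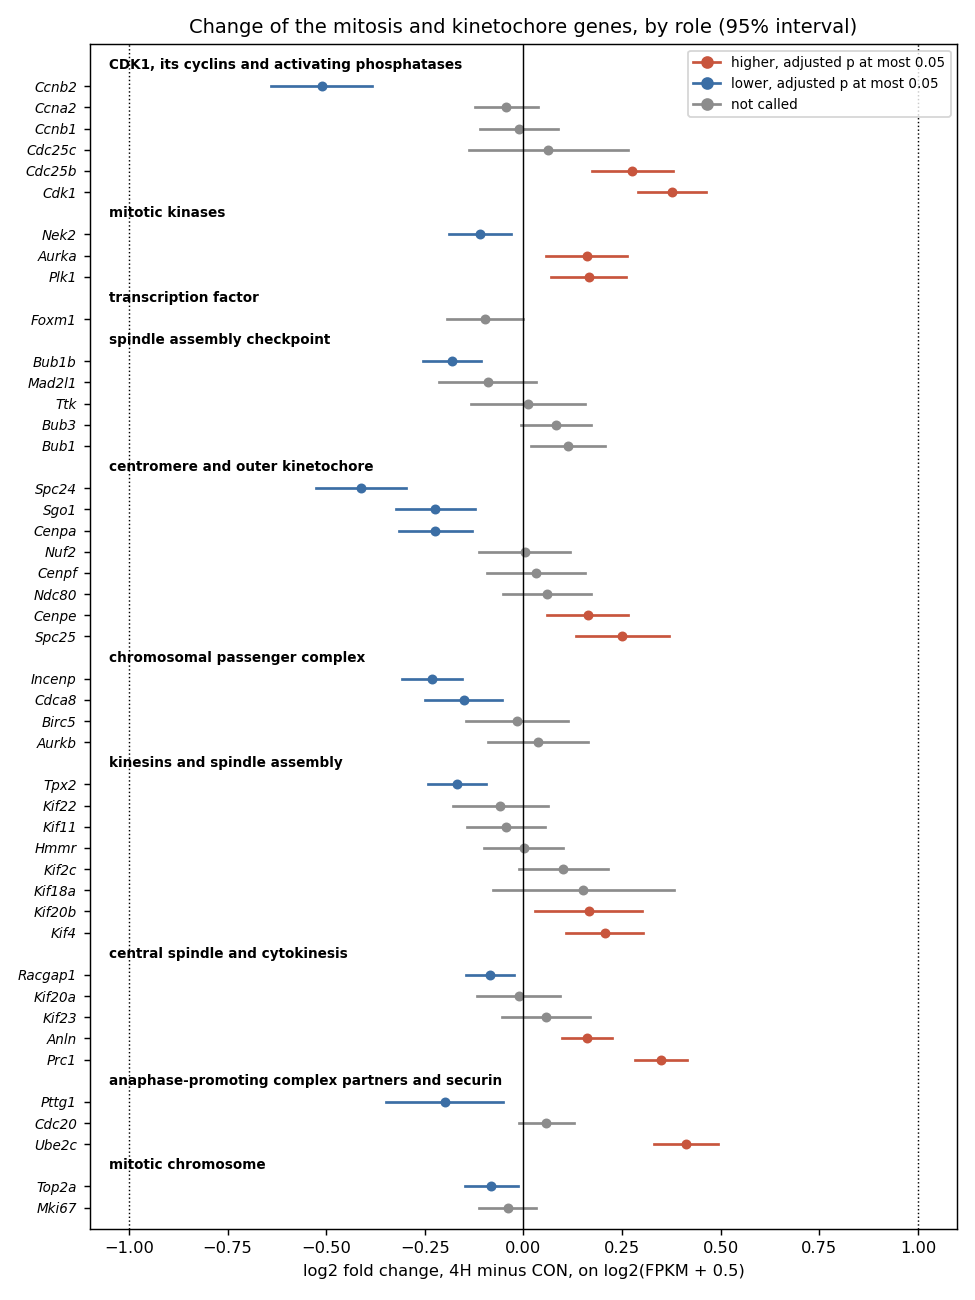
Log2 fold change (4H minus CON) of the 45 genes with its 95% interval, grouped by role. Red marks the 11 genes higher and blue the 12 genes lower at an adjusted p of at most 0.05, grey the 22 not called, and the dotted lines mark an absolute change of 1, which no gene reached.

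**Figure D4:**
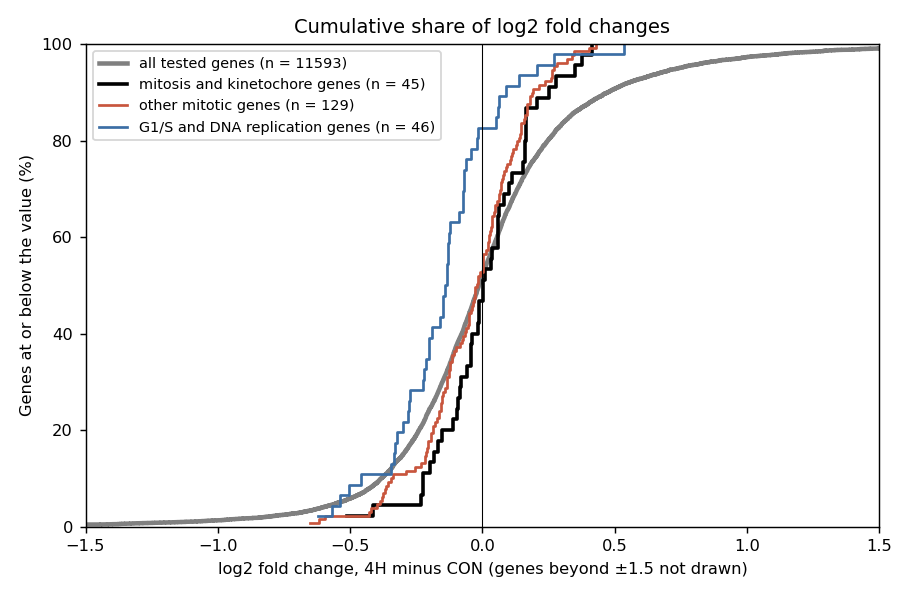
Cumulative share of genes (%) against log2 fold change (4H minus CON) for all 11593 tested genes, the 45 mitosis and kinetochore genes, 129 other mitotic genes and 46 G1/S and DNA replication genes, with genes beyond 1.5 not drawn. The black line of the 45 genes is steep around 0 (median 0.00), and the blue G1/S line lies to its left (median -0.14).

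The 22 genes that were not called had 95% intervals between -0.21 and 0.38 on the log2 scale. The narrowest of them belonged to abundant genes, such as Cdc20 (-0.01 to 0.13), and the widest to the least abundant, Kif18a (-0.08 to 0.38) and Cdc25c (-0.14 to 0.26). Length and GC content of the transcripts are given by call as a description. The median length of the longest annotated transcript was 3645 bases in genes that rose, 3539 bases in genes that fell and 3630 bases in the others, and the median GC content was 47.8%, 48.3% and 45.2%. Exons of 13 of the 45 genes overlap a gene on the opposite strand, among them Prc1, Ube2c, Cdc25b and Plk1. Foxm1 and Top2a share exon bases with a gene on the same strand, and whether counting used the strand is not known from the methods given.

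Among CDK1 and its activators, Cdk1 and Cdc25b rose, Ccnb2 fell and 3 genes were not called. Cdk1 (chr10:69335146-69352938, minus strand, in the mm10 build that is used for all gene positions), the kinase that drives entry into mitosis, was at 37.9, 38.9 and 40.8 FPKM in the CON group and at 50.7, 51.2 and 51.1 FPKM in the 4H group. All 4H libraries were above all CON libraries, and the mean rose from 39.2 ± 1.48 to 51.0 ± 0.287 FPKM (SD, n = 3 in each group, as in all following values), a log2 fold change of 0.38 (SE 0.037, adjusted p = 9.02e-05). Ccnb2 (chr9:70407692-70421547, minus strand), which encodes cyclin B2, was at 47.2, 53.6 and 51.2 FPKM in CON and at 35.3, 37.1 and 33.8 FPKM in 4H. It had the largest change of the 45 genes, from 50.7 ± 3.22 to 35.4 ± 1.68 FPKM (a change of -0.51 in log2, SE 0.056, adjusted p = 0.000154).

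The other mitotic cyclins were not called. Ccnb1, which encodes the main mitotic cyclin, cyclin B1, was at 81.4, 87.1 and 91.0 FPKM in CON and at 85.1, 84.7 and 87.1 FPKM in 4H, and the groups overlapped (log2 fold change -0.01, 95% interval -0.11 to 0.09). Of its transcript sequence, 35.2% of all 75-base stretches also occur in other annotated genes, mainly pseudogenes of Ccnb1, and its level is uncertain to that extent. Ccna2, encoding cyclin A2, went from 77.7 ± 2.41 to 75.4 ± 1.74 FPKM with overlapping groups (interval -0.12 to 0.04). Cdc25b, a phosphatase that activates CDK1, rose from 37.3 ± 1.90 to 45.3 ± 1.01 FPKM (a change of 0.28 in log2, SE 0.045, adjusted p = 0.00134). Its relative Cdc25c was at 11.4, 14.1 and 14.1 FPKM in CON and 13.1, 14.5 and 13.7 FPKM in 4H and was not called (adjusted p = 0.585).

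**Figure D5:**
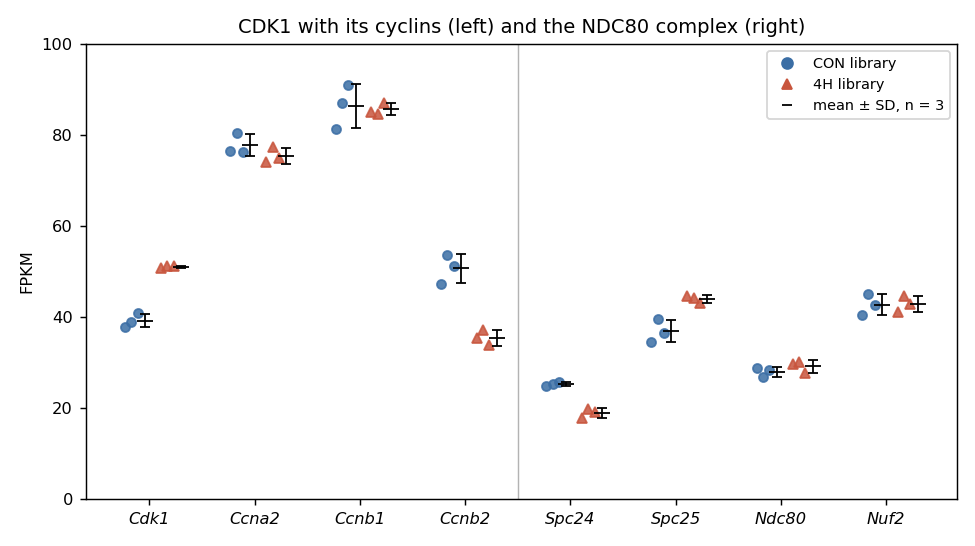
Level in FPKM of Cdk1 and its cyclins and of the NDC80 complex genes in each library, with CON as blue circles, 4H as red triangles, and black bars for the mean ± SD of 3 libraries. Cdk1 rose from 39.2 to 51.0 and Ccnb2 fell from 50.7 to 35.4 FPKM, and Spc24 fell from 25.3 to 18.9 while Spc25 rose from 36.9 to 43.9 FPKM.

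The kinase genes Plk1 and Aurka rose and Nek2 fell. Plk1, polo-like kinase 1, was at 39.4, 40.6 and 39.2 FPKM in CON and at 43.0, 44.1 and 46.8 FPKM in 4H (log2 fold change 0.16, adjusted p = 0.0114). Aurka, the Aurora kinase of spindle poles, rose from 42.2 ± 1.61 to 47.2 ± 1.99 FPKM (0.16, adjusted p = 0.019). Nek2, a centrosome kinase, was lower, at 29.3 ± 0.270 against 31.6 ± 0.202 FPKM (-0.11, adjusted p = 0.0286). The latter calls were near the threshold. Aurka passed it in all but 2 alternatives, with an adjusted p of 0.0603 without 4H replicate 3 and 0.0627 without CON replicate 1, and Nek2 lost its call whichever library was left out (0.0583 to 0.0797). Foxm1, the forkhead factor that activates late cell cycle genes, was at 48.8, 45.8 and 48.1 FPKM in CON and 43.3, 43.7 and 46.4 FPKM in 4H, and was not called (-0.10, interval -0.19 to -0.00, adjusted p = 0.0905). Without 4H replicate 3 its adjusted p was 0.0482.

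Of the 5 spindle assembly checkpoint genes, only Bub1b was called. Bub1b encodes BUBR1, the part of the mitotic checkpoint complex that holds CDC20, and was at 43.9, 43.5 and 44.1 FPKM in CON and at 38.1, 39.1 and 38.5 FPKM in 4H. The groups were well apart relative to their spread, with a log2 fold change of -0.18 (SE 0.032, adjusted p = 0.002). The kinase gene Bub1 was at 35.4 ± 0.655 and 38.3 ± 1.5 FPKM, with all 4H libraries above all CON libraries and an adjusted p of 0.0511. It was called without 4H replicate 2 (0.0261). The values of Bub3, their common binding partner, were 43.8 ± 0.782 and 46.4 ± 1.73 FPKM, those of Mad2l1, the effector MAD2, 36.8 ± 2.09 and 34.5 ± 1.66 FPKM, and those of the kinase Ttk 24.2 ± 0.813 and 24.5 ± 2.00 FPKM. The groups overlapped in all 3 of these genes.

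At the centromere and outer kinetochore, 2 genes rose, 3 fell and 3 were not called. Cenpa, the histone H3 variant that marks the centromere, was at 67.2, 70.9 and 65.6 FPKM in CON and at 56.1, 58.4 and 59.8 FPKM in 4H. It fell from 67.9 ± 2.68 to 58.1 ± 1.82 FPKM (a change of -0.22 in log2, adjusted p = 0.00241). Sgo1, which protects centromeric cohesin, fell by 0.22 on the log2 scale as well (15.7 ± 0.196 to 13.4 ± 0.156 FPKM, adjusted p = 0.00349). Cenpe, a kinetochore kinesin, rose from 25.1 ± 1.17 to 28.1 ± 0.422 FPKM (0.16, adjusted p = 0.0174), but not past the threshold without 4H replicate 2 (0.0554) or CON replicate 1 (0.0564). Cenpf, a large outer kinetochore protein, was at 22.1 ± 0.853 and 22.6 ± 1.30 FPKM.

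The NDC80 complex consists of an NDC80 and NUF2 dimer, which binds the microtubule, and an SPC24 and SPC25 dimer, which anchors it to the inner kinetochore. Spc24 (chr9:21755442-21760303, minus strand) was at 24.9, 25.1 and 25.8 FPKM in CON and at 17.8, 19.8 and 19.0 FPKM in 4H. This was the second largest fall of the 45 genes, from 25.3 ± 0.480 to 18.9 ± 1.02 FPKM (a change of -0.41 in log2, SE 0.049, adjusted p = 0.000267). Spc25 (chr2:69193895-69206194, minus strand) was at 34.6, 39.6 and 36.5 FPKM in CON and at 44.6, 44.2 and 43.0 FPKM in 4H. It changed in the opposite direction to its dimer partner, from 36.9 ± 2.5 to 43.9 ± 0.830 FPKM (0.25, SE 0.051, adjusted p = 0.00445). Ndc80 was at 28.7, 26.8 and 28.2 against 29.7, 30.1 and 27.6 FPKM (interval of the log2 fold change -0.05 to 0.17). Nuf2 was at 40.5, 45.1 and 42.5 against 41.0, 44.6 and 42.8 FPKM (-0.11 to 0.12), and neither was called.

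In the chromosomal passenger complex, the scaffold and 1 targeting subunit fell. Incenp, the scaffold that activates Aurora B, was at 52.1, 50.6 and 51.8 FPKM in CON and at 43.0, 44.7 and 43.6 FPKM in 4H (log2 fold change -0.23, SE 0.033, adjusted p = 0.000655). Cdca8, which encodes borealin, fell from 48.3 ± 1.64 to 43.4 ± 1.76 FPKM (-0.15, adjusted p = 0.0196). Its call was lost without 4H replicate 1 (0.0518), 4H replicate 3 (0.0643) or CON replicate 3 (0.0704), and with the libraries rescaled to TPM (0.0537). The kinase gene Aurkb was at 38.5 ± 0.504 and 39.5 ± 3.08 FPKM, and Birc5, encoding survivin, at 81.7 ± 4.09 and 80.8 ± 5.59 FPKM. The 4H libraries lay on both sides of the CON libraries in these genes.

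Of the 8 kinesin and spindle assembly genes, 2 rose, 1 fell and 5 were not called. Kif4, a chromokinesin that works with PRC1 at the spindle midzone, was at 19.6, 20.2 and 19.5 FPKM in CON and at 22.1, 23.2 and 23.3 FPKM in 4H (log2 fold change 0.21, adjusted p = 0.00454). Kif20b rose from 23.5 ± 1.81 to 26.4 ± 0.745 FPKM at an adjusted p of 0.0492, and lost the call without CON replicate 1 (0.140) or 3 (0.107), 4H replicate 1 (0.106), 2 (0.128) or 3 (0.0631). Tpx2, which activates Aurora A on spindle microtubules, fell from 77.0 ± 1.33 to 68.4 ± 1.64 FPKM (-0.17, adjusted p = 0.00301). The group values of Kif11, the bipolar spindle motor, were 37.7 ± 1.34 and 36.6 ± 1.35 FPKM, and those of Kif2c, a microtubule depolymerase, 30.2 ± 1.46 and 32.4 ± 1.30 FPKM. The values of Hmmr, a spindle assembly factor, were 38.6 ± 1.65 and 38.6 ± 1.12 FPKM, and those of the chromokinesin Kif22 were 33.2 ± 0.451 and 31.9 ± 2.20 FPKM. Kif18a, a motor that limits chromosome oscillation, was at 11.5 ± 1.57 and 12.8 ± 1.11 FPKM (adjusted p = 0.248, and 0.0377 without CON replicate 2).

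Of the 5 central spindle and cytokinesis genes, 2 rose, 1 fell and 2 were not called. Prc1 (chr7:80294450-80316259, plus strand), which bundles antiparallel microtubules in the central spindle, was at 69.0, 70.2 and 67.9 FPKM in CON and at 87.6, 88.4 and 88.2 FPKM in 4H. The spread within each group was small beside the difference, from 69.0 ± 1.14 to 88.0 ± 0.400 FPKM, and its adjusted p was the lowest of the 45 genes (log2 fold change 0.35, SE 0.028, adjusted p = 3.05e-05). Anln, encoding the contractile ring scaffold anillin, rose from 125.3 ± 2.52 to 140.2 ± 1.35 FPKM (0.16, adjusted p = 0.00179). Racgap1, the GTPase-activating subunit of centralspindlin, was lower by a small margin, at 126.6 ± 1.07 against 134.3 ± 2.35 FPKM (-0.08, adjusted p = 0.0318). It was past the threshold with CON replicate 1 left out, and not without CON replicate 2 (0.0926) or 3 (0.0665), or without 4H replicate 1 (0.0848), 2 (0.0660) or 3 (0.0643). Its partner Kif23 was at 40.01 ± 2.33 and 41.6 ± 1.12 FPKM and Kif20a, another midzone kinesin, at 56.0 ± 2.70 and 55.5 ± 2.12 FPKM.

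Among the partners of the anaphase-promoting complex, Ube2c rose and Pttg1 fell. Ube2c (chr2:164769898-164778822, plus strand), the ubiquitin-conjugating enzyme of the complex, was at 100.6, 92.4 and 96.7 FPKM in CON and at 127.8, 128.6 and 129.3 FPKM in 4H. This was the largest rise of the 45 genes, from 96.5 ± 4.11 to 128.6 ± 0.784 FPKM (a change of 0.41 in log2, SE 0.035, adjusted p = 4.14e-05). Pttg1, which encodes securin, the inhibitor of separase, was at 53.2, 53.5 and 60.0 FPKM in CON and at 44.5, 49.9 and 50.7 FPKM in 4H (-0.20, adjusted p = 0.0342). Its call was lost without CON replicate 3 (0.106) or 4H replicate 1 (0.0909). Cdc20, the activator that the checkpoint restrains, was at 70.5, 71.9 and 70.6 against 72.5, 73.7 and 75.5 FPKM, with all 4H libraries above all CON libraries, and was not called (0.06, adjusted p = 0.156).

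Of the mitotic chromosome genes, which are also common markers of proliferation, Top2a fell and Mki67 was not called. Mki67, which encodes the Ki-67 antigen of the mitotic chromosome surface, was at 72.5, 75.0 and 72.3 FPKM in CON and at 71.1, 70.1 and 72.6 FPKM in 4H, and the interval of its log2 fold change was -0.11 to 0.03. Top2a, encoding DNA topoisomerase II alpha, was at 140.8, 148.3 and 143.1 FPKM in CON and at 136.5, 137.0 and 134.7 FPKM in 4H. The fall was just past the threshold (log2 fold change -0.08, adjusted p = 0.0498) and was not called when any library but CON replicate 1 was left out (0.0897 to 0.141).

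Of the 23 calls, 15 were kept in all 18 alternative settings, namely Cdk1, Cdc25b, Plk1, Spc25, Kif4, Prc1, Anln and Ube2c among those higher, and Ccnb2, Bub1b, Cenpa, Spc24, Sgo1, Incenp and Tpx2 among those lower. The other 8 were lost in at least 1 setting, with adjusted p-values of up to 0.0564 for Cenpe, 0.0627 for Aurka, 0.0704 for Cdca8, 0.106 for Pttg1, 0.109 for Nek2, 0.140 for Kif20b, 0.188 for Racgap1 and 0.244 for Top2a. Conversely, 16 of the 22 uncalled genes were not called in any setting, and Foxm1, Bub1, Bub3, Kif18a, Cdc20 and Mki67 were called in some.

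Because several partners moved apart, the ratio of their FPKM was taken within each library for 14 pairs of proteins that bind each other or act on each other. The pairs were chosen after the values had been seen, and the ratios are given as a description. Spc25 stood at 1.39, 1.57 and 1.42 times the level of Spc24 in the CON libraries and at 2.5, 2.23 and 2.26 times in the 4H libraries. The mean ratio went from 1.46 ± 0.0985 to 2.33 ± 0.151, a difference of 0.68 in log2 (SE 0.077). The ratio of Nuf2 to Ndc80, the other dimer of the same complex, was 1.53 ± 0.139 and 1.47 ± 0.0857 with overlapping groups. The ratio of Cdk1 to Ccnb2 had the largest difference, from 0.774 ± 0.0427 to 1.44 ± 0.0678 (0.90 in log2, SE 0.061), so that Cdk1 was below Ccnb2 in every CON library and above it in every 4H library.

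The ratio of Cdk1 to Ccnb1 went from 0.453 ± 0.0105 to 0.596 ± 0.00884 (0.39 in log2), and that of Ccnb1 to Ccnb2 from 1.71 ± 0.0765 to 2.42 ± 0.150 (0.50). Aurka stood at 0.548 ± 0.0195 of its activator Tpx2 in CON and at 0.691 ± 0.0394 in 4H, and Aurkb at 0.747 ± 0.00492 and 0.904 ± 0.0679 of its activator Incenp. The ratio of Bub1b to Bub3 went down, from 1.00 ± 0.0160 to 0.832 ± 0.0419, while that of Bub1 to Bub3 overlapped between the groups (0.809 ± 0.0180 and 0.826 ± 0.00257). With 3 libraries against 3, the exact two-sided permutation test cannot go below p = 0.1, the value of each pair whose groups did not overlap, which became 0.127 after Benjamini-Hochberg adjustment over the 14 pairs.

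The rest of the mitotic machinery was taken from textbook complexes, as 129 genes that were all tested. Of these, 22 were higher (17.1%), 34 were lower (26.4%) and 73 were not called. The share called was 43.4%, against 46.7% of all tested genes. The median log2 fold change was -0.02, and no gene was past an absolute change of 1. Of all tested genes, 22.6% were higher and 24.1% lower, which is the background for each smaller list below. Among 18 condensin and cohesin genes, 3 rose and 6 fell. Smc4, a core ATPase of condensin, rose from 93.2 ± 2.37 to 102.9 ± 1.41 FPKM (a change of 0.14 in log2, adjusted p = 0.00606), and Ncapd2, a regulatory subunit of condensin I, fell from 44.1 ± 0.733 to 37.9 ± 0.190 FPKM (-0.22, adjusted p = 0.000851).

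Of 17 subunits and inhibitors of the anaphase-promoting complex, 2 rose and 5 fell. Anapc5, a scaffold subunit, fell from 123.5 ± 5.75 to 94.2 ± 1.55 FPKM (a change of -0.39 in log2, adjusted p = 8.84e-05), and Cdc27, a subunit that receives the activators, rose from 28.5 ± 0.230 to 32.1 ± 1.01 FPKM (0.17, adjusted p = 0.00732). Fbxo5, the inhibitor EMI1, was at 23.0 ± 1.05 and 23.6 ± 2.95 FPKM and was not called (adjusted p = 0.797). Among 33 inner and other kinetochore genes, 6 rose and 9 fell. Cenpm, of the constitutive centromere network, fell from 11.9 ± 1.87 to 7.36 ± 0.325 FPKM (-0.65, adjusted p = 0.00116), and Pmf1, of the MIS12 complex to which SPC24 and SPC25 bind, from 42.5 ± 0.895 to 27.9 ± 0.694 FPKM (-0.60, adjusted p = 6.64e-06). Zwint, which links the outer kinetochore to the checkpoint, rose from 94.3 ± 3.00 to 118.0 ± 2.85 FPKM (0.32, adjusted p = 0.000144).

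Of 33 further spindle, centrosome and cytokinesis genes, 6 rose and 8 fell. Haus1 and Haus4, subunits of the augmin complex that branches spindle microtubules, fell by 0.62 and 0.42 on the log2 scale (adjusted p = 0.000868 and 0.00195), and Depdc1a and Ckap2l rose by 0.34 and 0.28 (0.00099 and 0.00188). Of 14 other regulators of CDK1, 3 rose and 3 fell. The inhibitory kinase gene Pkmyt1 fell from 12.6 ± 1.16 to 9.26 ± 0.990 FPKM (-0.43, adjusted p = 0.00559), while Wee1, the other inhibitory kinase, was at 12.2 ± 0.707 and 13.6 ± 0.0800 FPKM (0.15, adjusted p = 0.0603). Cdc25a, which activates CDKs, rose from 10.3 ± 0.644 to 13.3 ± 1.04 FPKM (0.35, adjusted p = 0.00523).

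Among the 14 genes of MuvB, B-MYB, NF-Y and related factors that act on the CHR and CCAAT elements, 2 rose and 3 fell. Mybl2, which encodes B-MYB, was at 19.3, 18.7 and 19.8 FPKM in CON and at 15.0, 15.3 and 14.9 FPKM in 4H (log2 fold change -0.35, adjusted p = 0.00036). Lin9, a MuvB subunit, rose from 6.84 ± 0.113 to 9.39 ± 0.202 FPKM (0.43, adjusted p = 0.000373), and Lin52, another MuvB subunit, fell from 4.98 ± 0.120 to 3.67 ± 0.290 FPKM (-0.40, adjusted p = 0.00399). The other MuvB subunits in the list, Lin37, Lin54 and Rbbp4, which were chosen after their values were seen, were not called (0.06, -0.02 and 0.04).

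Genes of the G1/S transition and DNA replication were set beside the mitotic genes. Of 46 such genes, 3 rose (6.5%) and 25 fell (54.3%), with a median log2 fold change of -0.14. Of all tested genes, 22.6% rose and 24.1% fell. Of the 45 mitosis and kinetochore genes, 11 rose and 12 fell, with a median of 0.00. The libraries are the same, and the difference between the lists was not tested. Cdt1, which licenses replication origins, fell from 34.1 ± 0.706 to 22.9 ± 1.01 FPKM (-0.57, adjusted p = 2.27e-05), whereas Rrm2, a subunit of ribonucleotide reductase, rose from 162.4 ± 5.31 to 235.6 ± 4.78 FPKM (0.54, adjusted p = 5.46e-06). A CHR was found in 21.4% of the 42 matched promoters of these genes, against 79.5% in the mitosis and kinetochore genes.

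Among 14 tested genes that restrain the cell cycle, 7 rose (50%) and 3 fell (21.4%), against 22.6% and 24.1% of all tested genes. Cdkn1a, the CDK inhibitor p21, rose from 58.4 ± 2.69 to 93.4 ± 5.12 FPKM (a change of 0.67 in log2, adjusted p = 1.74e-05), and Gadd45g, a stress-induced inhibitor of CDK1 and cyclin B1, from 15.3 ± 0.321 to 26.3 ± 1.71 FPKM (0.76, adjusted p = 1.41e-05). Its relative Gadd45a fell from 77.3 ± 4.6 to 16.2 ± 2.18 FPKM (-2.23, adjusted p = 7.94e-07) and was the only gene of this list with an absolute change of at least 1. Trp53, which encodes p53, fell from 112.4 ± 3.00 to 74.0 ± 2.57 FPKM (-0.60, adjusted p = 5.68e-06).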

How the data were processed

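Paired-end RNA-seq of poly(A) RNA was performed on strand-specific libraries. The deposited table holds FPKM values that the authors computed per gene and library (build mm10 per the labels). Which aligner, annotation and counting tool they used is not given in the sources used here. All 6 columns were mapped to samples by their names. The columns titled 4H1, 4H3 and 4H4 are 4H replicates 1, 2 and 3, after the biosample numbers of the labels. Genes averaging 0.5 FPKM or more over the libraries were tested on log2(FPKM + 0.5) with limma 3.58.1 (R 4.3.3, empirical Bayes with a trend, two-sided) and Benjamini-Hochberg adjustment over all 11593 genes. A gene was called at an adjusted p of at most 0.05. The script recovered known changes when tested on simulated data. The sizes of those changes and the share recovered at each size are not given here. That check therefore does not show how well changes as small as those of the mitosis and kinetochore genes (at most 0.51 in absolute log2) are recovered. Coordinates, lengths and 75-base matches came from GENCODE M21 and promoters from RefSeq. A planned search of protein sequences was not made, as no protein table was used here.

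The genes and lists were chosen with earlier results of these data known. Every one of the 45 genes could be named. Of each other list, the 2 genes with the largest called change in each direction, with Cdkn1a, Wee1, Fbxo5 and Mybl2, could be named, and not all are. Other genes named, besides cell type markers, are said to be chosen after their values were seen. Alternative settings changed the pseudocount (0.1, 1), the filter (none, 1 and 5 FPKM), the model (replicate block, array weights, no trend) and the scaling (TPM, median of ratios, quantile), with each library left out in turn, and another promoter window. Removal of a trend on GC content and length, and a window of 50 bases on either side of the start, were added after seeing the data.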

Additional observations from a re-analysis of the deposited data

How the results depend on the processing

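Over the 18 alternative settings, no value of the 45 genes that was called changed sign. The number of the 45 genes called ranged from 17 to 21 with 1 library left out, and was 23 in the main analysis. That of all genes was 4638 to 4882 of 5409, that of the other mitotic genes 43 to 49 of 56, that of the G1/S genes 23 to 27 of 28 and that of the cell cycle brakes 9 to 10 of 10. None of the 45 genes passed an absolute log2 change of 1 in any setting. The number of all genes that did was 450, 245 with a filter at 5 FPKM and 703 with TPM, where the same filter and pseudocount stand for lower levels and 12457 genes were tested. The share of promoters with a CHR was 33.3% without the bases after the start, and with 50 bases on either side the shares with a CCAAT box and with 2 or more were 51.3% and 7.7%.

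Samples of the 2 groups share replicate numbers, but the correlations of their deviations were 0.025, -0.093 and -0.126, so that the numbers were not taken as pairs. By title, the library 4H3 (4H replicate 2) shares its number with CON replicate 3, and their correlation was 0.176. With a replicate block, 19 of the 45 genes (10 higher, 9 lower) and 4964 of all genes were called. FPKM give no read numbers, so that counting error could not be separated from the spread between libraries.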
